A study of Sus scrofa with 6 samples.

Results

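This comparison set the 2 arrays of porcine follicles titled last stage against the 2 titled middle stage, across every gene that the array's annotation names by 1 symbol and that was bright enough to test. It used 4 of the study's 6 arrays for the difference itself, while the other 2, titled primordial, entered through the shared estimate of the spread. Of 6765 genes with 1 symbol on the array, 5432 were tested, each through its probe set with the highest mean signal. The follicles came from the ovaries of prepubertal gilts, young female pigs before puberty, and were sorted by how they looked and by their diameter. No treatment, cross or altered gene is given for any group, and the titles separate the groups by stage alone. Whether the groups differed in anything else is not said. The arrays of a stage are titled as biological replicates, but whether those were separate animals or pools is not said, and a p-value here covers nothing beyond the spread among these arrays, which may be technical. In another label every one of the 6 samples is described as primordial, against its title, so stage names here follow the titles.

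An ovarian follicle grows from an oocyte wrapped in granulosa cells. As it enlarges, stromal cells outside the basement membrane form the theca, whose inner layer holds steroid-making cells and capillaries and whose outer layer holds smooth muscle and collagen. Theca cells bind luteinizing hormone, bring cholesterol into mitochondria and turn it into androgens, and granulosa cells turn those androgens into estrogens with aromatase. Late in growth granulosa cells acquire the luteinizing hormone receptor too, and lose features of small follicles such as anti-Müllerian hormone.

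Signals below are the deposited linear intensities of 1 probe set, and differences are last minus middle in log2(signal + 16), written ± their standard error from limma (n = 2 arrays in each stage). Folds use the same scale, so those of dim genes are understated. A gene is said to have risen or fallen only where limma's test, adjusted by Benjamini-Hochberg over all probe sets tested, gave an adjusted p under 0.05. By that rule 871 of 5432 genes changed, of which 478 rose (8.80% of the genes tested) and 393 fell (7.23%). Over all 14399 probe sets 17.2% were called. These shares are the background for each count of genes below. The last and middle replicates did not overlap for 57.6% of all genes tested, so the absence of overlap alone marks no gene out. Calls depended on whether a probe set had a gene name. Among those with 1 symbol, 610 rose and 462 fell, so that 43.1% of calls were lower, and among those without a single symbol 440 rose and 969 fell, which made 68.8% lower. Most probe sets called lower thus have no single gene name here and are not described below. Over all probe sets 1050 rose and 1431 fell, so that 42.3% of calls were higher, and with median centring of every array 1613 rose and 952 fell, or 62.9% higher. Centring moved the median difference of all probe sets from -0.07 to 0.12, and small differences should be read against that shift.

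The arrays also differed in measures of RNA quality. The log2 difference between the 3′ and the 5′ probe sets of GAPDH, which grows as RNA is degraded or incompletely copied, was 3.29 and 2.79 in middle and 1.90 and 1.86 in last follicles. For actin the same difference was 4.98 and 4.21 on the middle arrays against 3.90 and 3.57 on the last arrays. Both controls thus separated the stages, and their part in the differences between stages below was not tested. Pearson's r of log2 signals over the probe sets tested, which are not independent replicates, was 0.966 between the middle arrays, 0.955 between the last arrays and 0.845 to 0.882 between the stages. RNA came from whole follicles, so for any cell type fewer cells and less RNA per cell cannot be told apart.

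**Figure D1:**
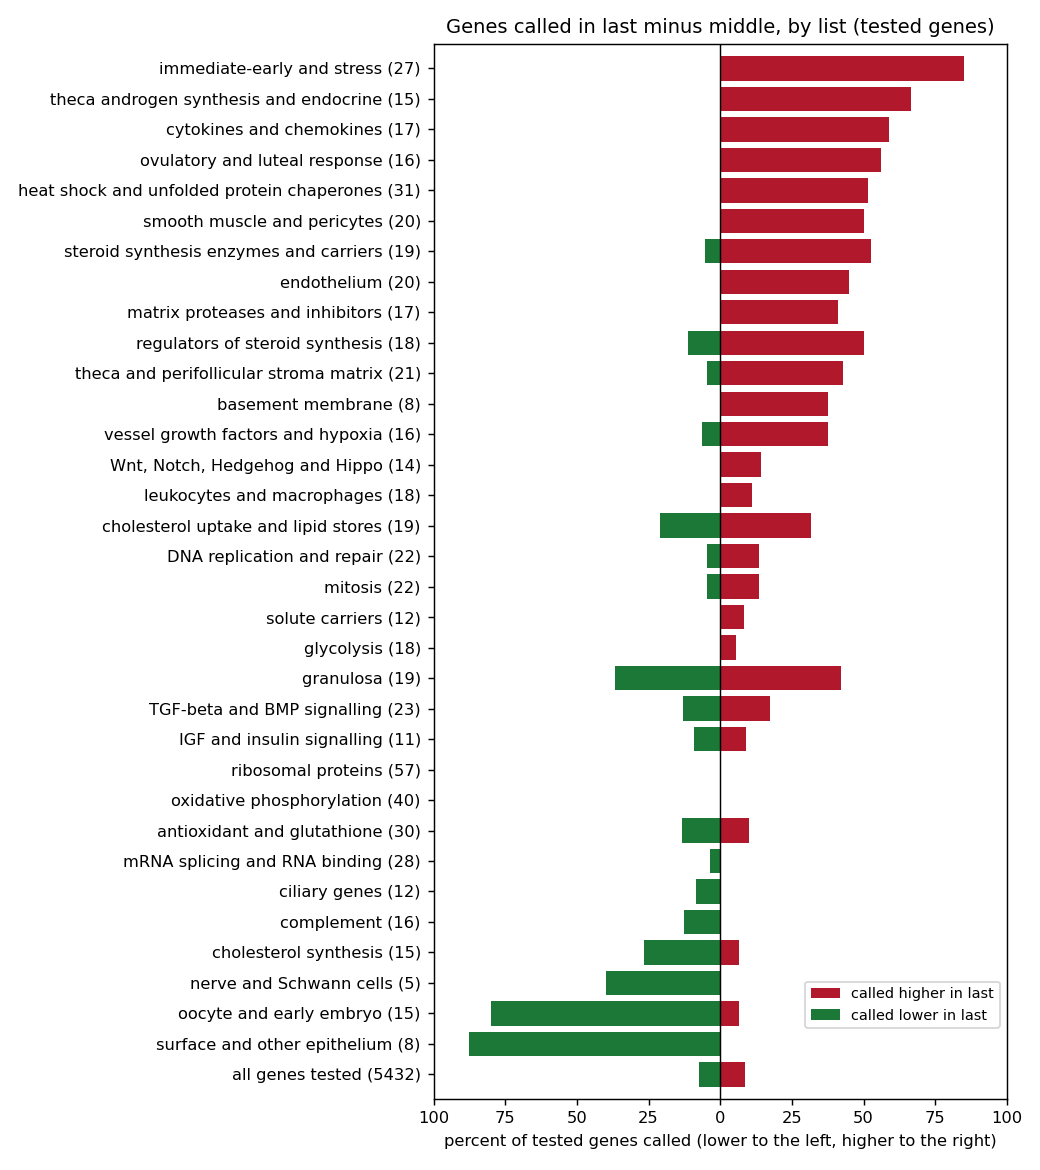
Each bar gives the percent of a list's tested genes that limma called higher (right, red) or lower (left, green) in last than in middle follicles, with the number tested in brackets and all 5432 genes at the bottom. The immediate-early list lies at the top with 23 of 27 higher, the theca list next with 10 of 15, and the epithelium list lowest with 7 of 8 lower.

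Genes at several steps of the steroid pathway rose, from cholesterol transport to estrogen synthesis, though not all of these calls were stable. Of 19 tested genes for steroid enzymes and carriers, 10 rose and 1 fell, with a median difference of 0.95 log2 units against 0.02 over all genes. STAR, which carries cholesterol into mitochondria and sets the pace of steroid synthesis, had signals of 88.5 and 63.9 in middle and 2487 and 1626 in last follicles. Both last arrays were far above both middle arrays, and STAR rose by 4.47 ± 0.30 log2 units (adjusted p = 3.53e-05), or 22.2-fold. CYP11A1, which cleaves the cholesterol side chain, had signals of 256 and 1090.2 in middle and 1609.7 and 1872 in last follicles. Its middle arrays differed about as much from each other as from the last arrays, and the rise of 1.67 ± 0.50 log2 units (adjusted p = 0.0488) was lost under 10 of 16 alternatives, with adjusted p from 0.0018 to 0.136, and stood at 0.66 log2 units without middle replicate 1 and 2.69 without middle replicate 2. FDX1, the electron donor of that mitochondrial enzyme, gave a firmer rise, with 2163 and 2219.9 in middle and 9442 and 7899 in last follicles and a difference of 1.97 ± 0.20 log2 units (adjusted p = 0.000265). FDXR, the reductase that feeds FDX1, rose by 0.95 ± 0.25 log2 units (adjusted p = 0.0331), a call lost without either middle array or either last array. Its other tested probe sets differed by 0.52 ± 0.64 log2 units (adjusted p = 0.619) and 0.50 ± 0.32 log2 units (adjusted p = 0.313), without a call. The mean of its probe sets differed by 0.66 log2 units (adjusted p = 0.249), also without a call.

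The later steps rose as well. HSD3B1, which turns pregnenolone into progesterone, had signals of 296 and 507 in middle and 1769 and 1466 in last follicles and rose by 2.01 ± 0.41 log2 units (adjusted p = 0.00995). Without middle replicate 1 its adjusted p was 0.125. CYP17A1, the enzyme that commits steroids to androgens and that granulosa cells lack, had signals of 55.5 and 53.5 in middle and 553 and 536 in last follicles and rose by 2.99 ± 0.40 log2 units (adjusted p = 0.00131), or 7.94-fold. The helpers of CYP17A1 moved the same way, in that POR, which hands it electrons, rose by 2.82 ± 0.29 log2 units (adjusted p = 0.000317) and CYB5A, which favours its androgen-forming step, by 1.11 ± 0.16 log2 units (adjusted p = 0.00178). POR stood at 330.4 and 639 in middle and 3193 and 3535 in last follicles, and CYB5A at 3653 and 3923 in middle and 8443 and 7917 in last follicles, with no overlap between stages for either. CYP19A3, an aromatase of granulosa cells, had signals of 1433 and 1924 in middle and 14524 and 14555 in last follicles, close together within each stage, and rose by 3.12 ± 0.18 log2 units (adjusted p = 1.31e-05). Pigs carry near-identical aromatase genes, so which copy this probe set measures is uncertain, and every probe set named CYP19A1 was too dim to test. Another tested probe set named CYP19A3 rose by 4.51 ± 0.33 log2 units (adjusted p = 4.46e-05). A further tested one differed by 0.53 ± 0.30 log2 units (adjusted p = 0.255), without a call and with overlap between stages. HSD17B1, which makes estradiol from estrone, rose by 1.14 ± 0.21 log2 units (adjusted p = 0.00668), with adjusted p = 0.0885 without middle replicate 1. With that array left out 7 steroid genes were called in place of 11.

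HSD17B7, which acts both on estrone and in cholesterol synthesis, was the exception in the list. It had signals of 1672 and 1731 in middle and 436 and 335 in last follicles, all last values below all middle values, and fell by 2.11 ± 0.21 log2 units (adjusted p = 0.000265). Members that did not pass the test included STARD3, a cholesterol carrier of late endosomes, at 0.51 ± 0.25 log2 units (adjusted p = 0.2) and HSD11B1, which regenerates cortisol, at -0.27 ± 0.21 log2 units (adjusted p = 0.421). Of the 23 list members on the array, 4 were under the brightness filter. With no filter 8 of the 23 rose and 1 fell, with a median of 0.71 log2 units. Of the 10 genes that rose with the filter, 8 had both primordial values below both last values. The share over all genes that rose was 40.2%. CYP11A1 went the other way, with primordial signals of 4673 and 4311 above both last arrays, while STAR (31.1 and 22.9) and CYP17A1 (40.2 and 10.3) were at their lowest there.

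**Figure D2:**
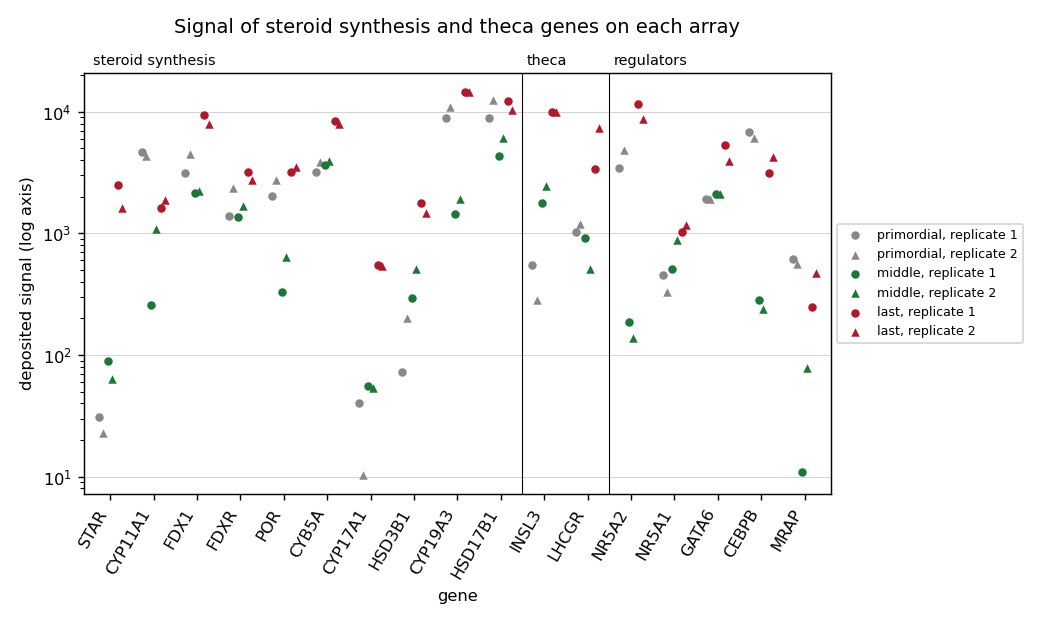
Points give the deposited signal (log axis) of each gene on each array, with grey for primordial, green for middle and red for last, circles for replicate 1 and triangles for replicate 2. Both red points lie above both green points in every gene shown, by a wide margin for STAR and NR5A2 and by little for NR5A1, which was not called.

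The theca list repeated these enzymes and added hormone and receptor genes. In it 10 of 15 tested genes rose and 0 fell, with a median of 1.67 log2 units, or 1.06 without middle replicate 1. Members could pass the brightness filter through the last arrays alone. With no filter 8 of 17 rose and 0 fell, with a median of 1.11 log2 units. INSL3, a peptide hormone of theca cells, had signals of 1777 and 2474 in middle and 10006 and 9958 in last follicles. The last replicates lay almost on each other and well above the middle ones, and INSL3 rose by 2.24 ± 0.29 log2 units (adjusted p = 0.0011). LHCGR, the luteinizing hormone receptor, which theca cells bear throughout and granulosa cells only late, had 917 and 510.1 in middle and 3367 and 7409 in last follicles, with no overlap though the last arrays differed more than the middle ones, and rose by 2.84 ± 0.37 log2 units (adjusted p = 0.00115). The steroid enzymes are shared with the list above, so the count of this list does not add to theirs. Other members gave no call. NR5A1, the nuclear receptor that drives steroid enzyme genes, differed by 0.70 ± 0.29 log2 units (adjusted p = 0.126). GLI1, a target of hedgehog signals from granulosa cells, differed by -0.44 ± 0.45 log2 units (adjusted p = 0.539). ALDH1A1, the retinaldehyde dehydrogenase of theca, stood at 562 and 279.8 in middle and 87.2 and 372 in last follicles, so that the stages overlapped, and its difference of -1.05 ± 0.57 log2 units (adjusted p = 0.24) did not pass the test, while without last replicate 2 it was -2.0 log2 units and called lower (adjusted p = 0.0259). In all 5 tested members gave no call, and 2 further ones on the array were too dim to test.

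Regulators of steroid synthesis gave the largest single rise. Of 18 tested, 9 rose and 2 fell. NR5A2, a nuclear receptor of granulosa cells that is needed for ovulation and binds the same DNA motif as NR5A1, had signals of 185 and 137 in middle and 11608 and 8676 in last follicles and rose by 5.84 ± 0.24 log2 units (adjusted p = 5.28e-06), or 57.3-fold. All 3 tested probe sets of NR5A2 were called higher. CEBPB, a transcription factor downstream of luteinizing hormone, had 282 and 238 in middle and 3163 and 4214 in last follicles and rose by 3.74 ± 0.20 log2 units (adjusted p = 1.07e-05). NR4A3, an orphan nuclear receptor induced by cAMP, was dimmer, with 41.4 and 67.8 in middle and 249 and 305 in last follicles, and rose by 2.07 ± 0.27 log2 units (adjusted p = 0.00121). GATA6, which acts on steroid enzyme promoters, rose by 1.11 ± 0.19 log2 units (adjusted p = 0.00439), with last signals of 5381 and 3928 over middle signals of 2117 and 2118, whereas its relative GATA4 differed by -0.28 ± 0.24 log2 units (adjusted p = 0.45). MRAP, a partner of melanocortin receptors, rose by 2.84 ± 0.53 log2 units (adjusted p = 0.00648) from 10.8 and 77.8 in middle to 247 and 473 in last follicles, and its relative MRAP2, outside the list, fell by 2.30 ± 0.36 log2 units (adjusted p = 0.00294), with adjusted p = 0.0596 without middle replicate 1.

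The receptor for follicle-stimulating hormone went down while that for luteinizing hormone went up. FSHR had signals of 314 and 309.5 in middle and 137 and 146 in last follicles, which did not overlap, and fell by 1.06 ± 0.23 log2 units (adjusted p = 0.0139). Leaving out middle replicate 1 or middle replicate 2 ended the call, at adjusted p = 0.0974 and 0.0635. NR0B1, a repressor of NR5A1 and NR5A2, stood at 227 and 254 in middle and 60.8 and 63.1 in last follicles and fell by 1.72 ± 0.39 log2 units (adjusted p = 0.0173), a call lost in 5 of 15 alternatives, among them the removal of any middle or last array, with adjusted p from 0.0027 to 0.109. FOXO1, a granulosa transcription factor, rose by 1.28 ± 0.25 log2 units (adjusted p = 0.00823), with adjusted p = 0.0989 without middle replicate 1. PGR, the progesterone receptor that the ovulatory surge induces, differed by 0.46 ± 0.42 log2 units (adjusted p = 0.483), which did not pass the test.

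Genes that supply cholesterol moved in both directions. Of 19 tested genes for uptake and lipid stores, 6 rose and 4 fell. LRP8, a lipoprotein receptor, had signals of 1022 and 1169 in middle and 11447 and 13081 in last follicles, and rose by 3.47 ± 0.16 log2 units (adjusted p = 5.28e-06), or 11-fold. The apolipoproteins APOE and APOA1 rose by 2.01 ± 0.30 log2 units (adjusted p = 0.0021) and 1.90 ± 0.27 log2 units (adjusted p = 0.00177). APOE had 413 and 479.8 in middle and 1325 and 2554 in last follicles, and APOA1 had 1554 and 1699 in middle and 4859 and 7719.6 in last follicles. SCARB1, the receptor that takes cholesterol from high-density lipoprotein, rose by 1.29 ± 0.25 log2 units (adjusted p = 0.00794), and adjusted p was 0.0744 without middle replicate 1. FABP5, a fatty acid carrier, rose by 1.70 ± 0.26 log2 units (adjusted p = 0.00252), or by 1.02 as the mean of its probe sets. In contrast LPL, the lipase that frees fatty acids from lipoproteins, fell by 2.87 ± 0.25 log2 units (adjusted p = 0.000116), with signals of 555 and 758 in middle and 82.2 and 67.9 in last follicles. PNPLA4, a lipase of retinyl esters and triglycerides, fell by 4.24 ± 0.36 log2 units (adjusted p = 9.64e-05), or 18.9-fold, from 2051 and 1848 in middle to 54 and 137 in last follicles. VLDLR, the very low density lipoprotein receptor, fell by 0.87 ± 0.18 log2 units (adjusted p = 0.0101), without middle replicate 1 at adjusted p = 0.0586 and without middle replicate 2 at 0.0608.

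Cholesterol synthesis showed no rise to match. Of 15 tested genes 1 rose, INSIG1, and 4 fell, with a median of -0.32 log2 units. FDFT1, squalene synthase, had 3269.8 and 3622 in middle and 1369 and 1484 in last follicles, all last values lower, and fell by 1.26 ± 0.17 log2 units (adjusted p = 0.00152). INSIG1, which holds back the pathway when sterols are plentiful, rose by 1.09 ± 0.21 log2 units (adjusted p = 0.00742), with adjusted p = 0.0652 without middle replicate 1. The other falls were HSD17B7, given above, and CYP51 and SC5D, late enzymes of the pathway, at -0.80 ± 0.23 log2 units (adjusted p = 0.0437) and -0.86 ± 0.24 log2 units (adjusted p = 0.035). The CYP51 and SC5D calls were lost in 10 and 7 of the 16 alternatives, including the removal of either middle array, with adjusted p from 0.0222 to 0.192 and from 0.0229 to 0.15. SQLE, squalene epoxidase, differed by -0.62 ± 0.31 log2 units (adjusted p = 0.198) and HMGCS1, an early enzyme, by -0.52 ± 0.19 log2 units (adjusted p = 0.0902), both without a call.

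Smooth muscle genes rose. Of 20 tested genes of smooth muscle and pericytes, 10 rose and 0 fell, with a median of 0.78 log2 units. With no brightness filter 9 of 23 rose and 0 fell, with a median of 0.79 log2 units. ACTG2, the smooth muscle gamma actin, had signals of 63.6 and 101 in middle and 5025 and 3972 in last follicles and rose by 5.54 ± 0.31 log2 units (adjusted p = 1.14e-05), or 46.5-fold. Of its 2 tested probe sets 1 was called, and their mean rose by 2.93 log2 units. CNN1, calponin, had 149.5 and 116 in middle and 846 and 754 in last follicles and rose by 2.46 ± 0.26 log2 units (adjusted p = 0.000328). TAGLN, transgelin, had 896 and 920.4 in middle and 3249.6 and 2854 in last follicles and rose by 1.73 ± 0.21 log2 units (adjusted p = 0.000687). For each of these the stages lay far apart with little spread inside them. ACTA2, smooth muscle alpha actin, was already present on the middle arrays, with 5536 and 6175 in middle and 18297 and 19323 in last follicles, and rose by 1.68 ± 0.16 log2 units (adjusted p = 0.000216). TPM2, a tropomyosin, rose by 2.15 ± 0.30 log2 units (adjusted p = 0.00152) on its brightest probe set, but of its 3 tested probe sets 2 rose and 1 fell, and their mean rose by 1.14 log2 units. MCAM, an adhesion molecule of pericytes and endothelium, rose by 1.81 ± 0.33 log2 units (adjusted p = 0.00632), and its adjusted p was 0.0501 without middle replicate 2. TPM1, DES, FLNA and ACTN1, which serve muscle and other contractile cells, made up the other calls at 0.82 ± 0.20 log2 units (adjusted p = 0.0209), 2.14 ± 0.60 log2 units (adjusted p = 0.0378), 0.78 ± 0.20 log2 units (adjusted p = 0.0289) and 0.79 ± 0.22 log2 units (adjusted p = 0.0387). Each of these 4 was lost without middle replicate 1 and without last replicate 1 among other settings, with adjusted p up to 0.166, 0.247, 0.182 and 0.172, and DES then stood at 1.37 log2 units without middle replicate 1. RGS5, a pericyte marker, differed by 0.26 ± 0.20 log2 units (adjusted p = 0.403) and CALD1, caldesmon, by 0.62 ± 0.28 log2 units (adjusted p = 0.166), neither of them called. With middle replicate 1 or last replicate 1 left out, 6 of the 20 genes were called.

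Endothelial genes rose with them. In the endothelium list 9 of 20 tested genes rose and 0 fell, with a median of 0.76 log2 units, and 3 further members, among them KDR and FLT1, the receptors for VEGF, were too dim to test. CDH5, the cadherin of endothelial junctions, had signals of 236 and 206 in middle and 812 and 1079 in last follicles and rose by 2.01 ± 0.31 log2 units (adjusted p = 0.00249). PECAM1, an adhesion molecule of endothelium and some blood cells, had 196 and 258 in middle and 722 and 894 in last follicles and rose by 1.77 ± 0.23 log2 units (adjusted p = 0.00108). VWF, the clotting factor stored in endothelial cells, had 174 and 104 in middle and 427 and 614 in last follicles and rose by 1.81 ± 0.31 log2 units (adjusted p = 0.00452). SELE, a selectin made by activated endothelium, had 41.4 and 6.7 in middle and 366 and 254 in last follicles, and rose by 3.16 ± 0.56 log2 units (adjusted p = 0.00545). EDN1, endothelin, had 37.3 and 63.5 in middle and 232 and 316 in last follicles and rose by 2.14 ± 0.33 log2 units (adjusted p = 0.0027). In all 5 genes the stages did not overlap. ESAM, a junction protein, rose by 1.73 ± 0.32 log2 units (adjusted p = 0.0062), at adjusted p = 0.0674 without middle replicate 1. The remaining calls were ENG, an accessory TGF-beta receptor, at 0.91 ± 0.25 log2 units (adjusted p = 0.0348), the claudin CLDN5 at 1.46 ± 0.40 log2 units (adjusted p = 0.0343) and ECSCR at 1.53 ± 0.32 log2 units (adjusted p = 0.012). Each was lost without middle replicate 2 and without last replicate 2, ENG and CLDN5 also without middle replicate 1 and CLDN5 without last replicate 1. As the mean of its probe sets ECSCR differed by 0.88 log2 units (adjusted p = 0.129), without a call. TEK, the angiopoietin receptor, differed by 0.10 ± 0.32 log2 units (adjusted p = 0.866), without a call. In 17 of the 20 genes last replicate 2 was above last replicate 1. The median was -0.40 log2 units for replicate 1 minus replicate 2. Over all genes tested last replicate 2 was above for 2618 of 5432, with a median of 0.01. Leaving out the dimmest 60% of probe sets in place of 40% left 4 endothelial genes called. With no brightness filter 7 of 23 rose and 0 fell, with a median of 0.73 log2 units.

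Among genes for vessel growth and hypoxia 6 of 16 rose and 1 fell. ANGPT1, the angiopoietin that steadies vessels through TEK, had signals of 93.3 and 79 in middle and 424 and 609 in last follicles and rose by 2.36 ± 0.27 log2 units (adjusted p = 0.000518). ADM, adrenomedullin, a vessel-widening peptide, had 257 and 193 in middle and 1792 and 3753 in last follicles and rose by 3.45 ± 0.32 log2 units (adjusted p = 0.000143). RGCC, a hypoxia-induced cell cycle regulator, had 35.1 and 222 in middle and 1319 and 2021 in last follicles, uneven on the middle arrays, and rose by 3.90 ± 0.57 log2 units (adjusted p = 0.00195). EPAS1, the hypoxia-inducible factor of endothelium, rose by 1.51 ± 0.23 log2 units (adjusted p = 0.00251) and ANGPTL4, a hypoxia-induced inhibitor of LPL, by 1.39 ± 0.24 log2 units (adjusted p = 0.00489). HIF1A rose by 0.62 ± 0.14 log2 units (adjusted p = 0.0171), and as the mean of its probe sets it rose by 1.10. Its call was lost without either middle array, without last replicate 2 and with no intensity trend. Under quantile normalization it was lost too, at 0.30 log2 units (adjusted p = 0.139). VEGFA, the main growth factor for vessels, gave -0.06 ± 0.19 log2 units (adjusted p = 0.87) on its brightest probe set, whereas 2 of its 3 tested probe sets were called higher, at 1.34 and 1.26 log2 units. ANGPT2, which loosens vessels, differed by 0.81 ± 0.28 log2 units (adjusted p = 0.0776), without a call, and passed without last replicate 1 (adjusted p = 0.0441).

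Beside the vessel genes, erythroid genes gave no call. Only 2 erythroid genes were bright enough to test and neither was called, with summed signals of 1771 and 1679 in middle and 1399 and 1187 in last follicles. Leukocyte genes set the last replicates apart from each other. Of 18 tested, 2 were called higher, LAPTM5 and ITGB2, with differences of 1.48 ± 0.34 log2 units (adjusted p = 0.0181) and 1.38 ± 0.33 log2 units (adjusted p = 0.0196). Both calls were lost without either middle array, with adjusted p up to 0.108 and 0.133, and without last replicate 2, at 0.92 and 0.89 log2 units. Summed signals of the leukocyte list were 6179 and 4780.1 on the middle arrays, 5697 on last replicate 1 and 16574 on last replicate 2. All 18 genes were higher on last replicate 2, and 13 by over 2-fold. Their median was -1.46 log2 units for replicate 1 minus replicate 2. Over all genes tested 2618 of 5432 were higher on last replicate 2, and 193 by over 2-fold. More of the leukocyte list was called when last replicate 1 was left out. Of the 24 members on the array 6 were too dim to test. PECAM1 and the chemokines below may be made by leukocytes, and the part of those cells in the vessel results was not tested. With last replicate 2 left out 6 endothelial genes were called in place of 9.

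**Figure D3:**
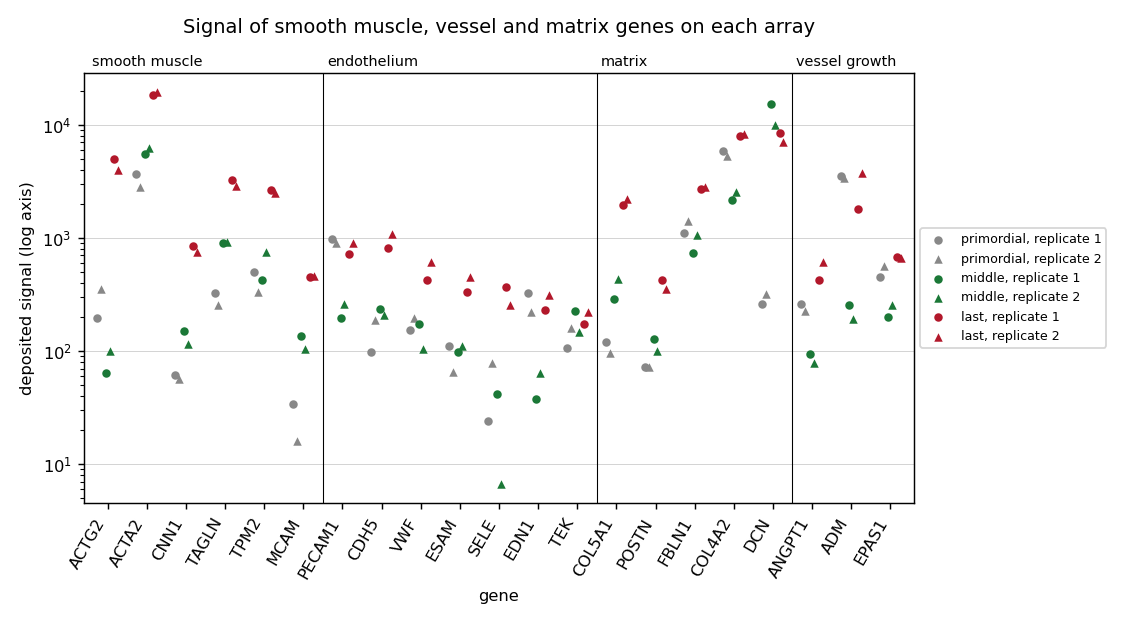
Points give the deposited signal (log axis) of each gene on each array, in the colours and shapes named in the key. Red points lie above green points in ACTG2, CNN1, CDH5 and COL5A1, overlap with them in TEK, and lie below them in DCN, which was not called.

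The matrix rose in some of its collagens, and others gave no call. Of 21 tested genes of theca and stroma matrix, 9 rose and 1 fell, with a median of 0.67 log2 units. Of those 10 calls 3 held under all alternatives that tested them. COL5A1, a collagen that starts fibrils, had signals of 289 and 432 in middle and 1958 and 2191 in last follicles and rose by 2.50 ± 0.25 log2 units (adjusted p = 0.000253). POSTN, periostin, rose by 1.65 ± 0.28 log2 units (adjusted p = 0.00426) from 126 and 99.6 in middle to 424 and 352 in last follicles. FBLN1, fibulin, had 738 and 1067 in middle and 2705 and 2829 in last follicles and rose by 1.62 ± 0.23 log2 units (adjusted p = 0.00162). SPARC, a collagen-binding protein, was bright on all arrays and rose by 0.67 ± 0.13 log2 units (adjusted p = 0.00779), with 14154 and 12747 in middle and 21204 and 21423 in last follicles; without middle replicate 2 its adjusted p was 0.0589. LUM and BGN, small proteoglycans of collagen, rose by 2.24 ± 0.42 log2 units (adjusted p = 0.00735) and 2.05 ± 0.47 log2 units (adjusted p = 0.017), LUM by 1.46 without last replicate 1. Both calls were lost without either middle array and that of BGN also without last replicate 1, with adjusted p up to 0.0683 and 0.123. The gene that fell was DPT, dermatopontin, at -1.23 ± 0.37 log2 units (adjusted p = 0.0499), a call lost in 9 of 15 alternatives, any middle or last array left out among them, with adjusted p up to 0.26. The main fibrillar collagens gave no call on their brightest probe sets. COL1A2 differed by 0.06 ± 0.25 log2 units (adjusted p = 0.893) on its brighter probe set, while its other tested probe set was called lower at -1.98 ± 0.58 log2 units (adjusted p = 0.0441). COL3A1 differed by 1.01 ± 0.68 log2 units (adjusted p = 0.339), with 149 and 83.8 in middle and 102 and 550.5 in last follicles, and without last replicate 1 it was called higher at 2.14 log2 units (adjusted p = 0.032). DCN, decorin, differed by -0.68 ± 0.23 log2 units (adjusted p = 0.0751) and passed without middle replicate 2 (adjusted p = 0.0432). Of these 21 genes 18 were higher on middle replicate 1 than on middle replicate 2, by a median of 0.34 log2 units. Over all genes tested 2121 of 5432 were, with a median of -0.09.

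In the basement membrane list 3 of 8 tested genes rose and 0 fell. COL4A2, a collagen of basement membranes, had 2144 and 2550.3 in middle and 8029.6 and 8219.9 in last follicles, tight within each stage, and rose by 1.79 ± 0.16 log2 units (adjusted p = 0.00013), while the laminin chains LAMB1 and LAMC1 differed by 0.70 ± 0.21 log2 units (adjusted p = 0.0505) and 0.63 ± 0.23 log2 units (adjusted p = 0.0924) without a call. LAMB1 passed under 5 alternatives, among them median centring (adjusted p = 0.0219), and LAMC1 without last replicate 2 (adjusted p = 0.0438). Among matrix proteases and their inhibitors 7 of 17 rose and 0 fell. ADAMTS1, a protease that luteinizing hormone and progesterone induce for ovulation, had 1116 and 882 in middle and 5017 and 5343 in last follicles and rose by 2.36 ± 0.18 log2 units (adjusted p = 5.09e-05). MMP14, a membrane protease, rose by 1.36 ± 0.22 log2 units (adjusted p = 0.00376), and TIMP2, which works with it, by 1.33 ± 0.20 log2 units (adjusted p = 0.00231). PLAU, the urokinase plasminogen activator, rose by 1.92 ± 0.33 log2 units (adjusted p = 0.00439) from 105 and 50.5 in middle to 399.6 and 261 in last follicles. The collagen cross-linkers LOX and LOXL1 rose by 1.92 ± 0.46 log2 units (adjusted p = 0.0214) and 1.64 ± 0.32 log2 units (adjusted p = 0.0086). Both were lost without either middle array and LOX also without last replicate 1, with adjusted p up to 0.118 and 0.085. TIMP1 and TIMP3, other inhibitors of metalloproteases, differed by 0.98 ± 0.35 log2 units (adjusted p = 0.0879) and 0.85 ± 0.30 log2 units (adjusted p = 0.0806), without a call. Each passed under 3 alternatives, TIMP1 among them without middle replicate 2, at 1.64 log2 units (adjusted p = 0.00902), and TIMP3 under median centring (adjusted p = 0.0395).

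Granulosa genes moved in both directions. Of 19 tested, 8 rose and 7 fell, so the median was 0.07 log2 units. Of those 15 calls 7 held under all alternatives that tested them. INHA, the alpha chain of inhibin, had signals of 2219 and 3823 in middle and 14359 and 13618 in last follicles, and rose by 2.26 ± 0.26 log2 units (adjusted p = 0.000525). FST, follistatin, which binds activin, had 3484 and 4846 in middle and 11831 and 11392 in last follicles and rose by 1.49 ± 0.18 log2 units (adjusted p = 0.000646), while its other tested probe set differed by 0.15 ± 0.22 log2 units (adjusted p = 0.685) and the mean of both by 0.82. Aromatase, NR5A2, LHCGR and HSD17B1, described above, rose too, as did SERPINE2, a protease inhibitor of granulosa cells, by 0.86 ± 0.15 log2 units (adjusted p = 0.0049), with adjusted p = 0.0526 without middle replicate 1. Among the 7 that fell were genes known from small follicles. AMH, anti-Müllerian hormone, had 969.5 and 1764 in middle and 107 and 113 in last follicles, and fell by 3.40 ± 0.31 log2 units (adjusted p = 0.000135), or 10.5-fold. Its receptor AMHR2 had 656 and 785 in middle and 272 and 416 in last follicles and fell by 1.06 ± 0.26 log2 units (adjusted p = 0.0233), and WT1, a transcription factor of early granulosa cells, fell by 1.57 ± 0.32 log2 units (adjusted p = 0.00995) from 346 and 320.3 in middle to 79.2 and 129 in last follicles. Both calls were lost without middle replicate 1, at adjusted p = 0.1 and 0.099, and without middle replicate 2, at 0.123 and 0.0574, and that of AMHR2 also without last replicate 1, at 0.103. GJA1, the connexin that couples granulosa cells, differed by 0.07 ± 0.13 log2 units (adjusted p = 0.745) and was not called. INHBB, an activin chain, was under the brightness filter, with signals of 3.60 and 14.6 in middle and 114.8 and 101.5 in last follicles.

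In the wider TGF-beta and BMP list 4 of 23 rose and 3 fell, against a background of 8.80% higher and 7.23% lower. ID1, a direct target of BMP signals, had 942 and 1598 in middle and 4168 and 5710.2 in last follicles and rose by 1.98 ± 0.31 log2 units (adjusted p = 0.00275). The receptor AMHR2 and the ligand AMH, given above, were among the falls, and the third was ACVR1B, an activin receptor, at -0.82 ± 0.21 log2 units (adjusted p = 0.027). The ligand TGFB3 rose by 1.04 ± 0.25 log2 units (adjusted p = 0.0201). The ACVR1B call was lost under median centring, without middle replicate 1 and without last replicate 1, and that of TGFB3 when any middle or last array was left out, with adjusted p up to 0.177 and 0.0931. The receptor BMPR1B at -0.51 ± 0.19 log2 units (adjusted p = 0.0999), the ligand TGFB2 at -0.75 ± 0.31 log2 units (adjusted p = 0.127) and the signal carrier SMAD4 at -0.28 ± 0.17 log2 units (adjusted p = 0.302) gave no call.

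Genes of the ovulatory response were among those that rose. Of 16 tested, 9 rose and 0 fell, with a median of 1.07 log2 units. PTGES, which makes prostaglandin E, had signals of 998 and 1337 in middle and 5319.9 and 5860.4 in last follicles and rose by 2.26 ± 0.23 log2 units (adjusted p = 0.000246). PTGS2, the inducible cyclooxygenase, was dim, with 18.1 and 3.5 in middle and 139.7 and 152 in last follicles, and rose by 2.65 ± 0.38 log2 units (adjusted p = 0.00181). AREG, an epidermal growth factor ligand that follows luteinizing hormone, had 4.0 and 2.4 in middle and 55 and 98.9 in last follicles and rose by 2.24 ± 0.36 log2 units (adjusted p = 0.00321). Its middle values were under the pseudocount of 16, so the size of the rise rests on the last arrays. EFNB2, an ephrin, rose by 1.21 ± 0.25 log2 units (adjusted p = 0.0111), at adjusted p = 0.0932 without middle replicate 1. PTGFR, the receptor for prostaglandin F, differed by -0.49 ± 0.25 log2 units (adjusted p = 0.209), without a call. The primordial arrays were above the last ones for PTGS2, at 389 and 606, and for AREG, at 972 and 1339.6.

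Immediate-early genes, which cells switch on rapidly after almost any stimulus, formed the list with the largest share of genes called higher. Of 27 tested, 23 rose and 0 fell, with a median of 1.75 log2 units. ATF3 had signals of 209.8 and 210.4 in middle and 4431 and 5130.3 in last follicles and rose by 4.40 ± 0.22 log2 units (adjusted p = 7.18e-06). KLF4 had 369 and 359 in middle and 5631 and 8713 in last follicles and rose by 4.21 ± 0.23 log2 units (adjusted p = 9.46e-06). NFKBIA, the inhibitor of NF-kappaB, had 1938 and 1782 in middle and 7596 and 8705 in last follicles and rose by 2.12 ± 0.15 log2 units (adjusted p = 3.55e-05). Replicates were close within stages and did not overlap between them. BTG2, GADD45B and GADD45G, which slow the cell cycle, rose by 2.85 ± 0.22 log2 units (adjusted p = 6.32e-05), 2.76 ± 0.21 log2 units (adjusted p = 5.14e-05) and 2.65 ± 0.21 log2 units (adjusted p = 7.23e-05), CYR61, a matrix signal, by 2.69 ± 0.19 log2 units (adjusted p = 3.92e-05), and the AP-1 genes FOS and JUN by 1.31 ± 0.14 log2 units (adjusted p = 0.000341) and 1.71 ± 0.23 log2 units (adjusted p = 0.00125). MYC differed by -0.14 ± 0.19 log2 units (adjusted p = 0.651), without a call. Of the 23 genes that rose, 14 had both primordial signals above both last signals and 3 had both below. Over all genes that rose these shares were 38.1% and 40.2%. The middle arrays were thus the low ones for most of this list. ATF3 was at 6492 and 4428 on the primordial arrays and KLF4 at 10316 and 8345.

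Heat shock and chaperone genes and chemokines rose as well. In the heat shock and unfolded protein list 16 of 31 rose and 0 fell. Of those 16 calls 7 held under all alternatives that tested them, and 5 were lost with no filter on dim probe sets. DNAJB1, a cochaperone of HSP70, had signals of 1138 and 1022 in middle and 13406 and 15198 in last follicles and rose by 3.71 ± 0.23 log2 units (adjusted p = 2.51e-05). BAG3, another cochaperone, had 554 and 648 in middle and 4236 and 5923 in last follicles and rose by 3.03 ± 0.37 log2 units (adjusted p = 0.000795). HSP70.2, an inducible heat shock protein, rose by 1.72 ± 0.22 log2 units (adjusted p = 0.00101) and HSPA5, the chaperone of the endoplasmic reticulum, by 0.96 ± 0.13 log2 units (adjusted p = 0.0016), while the constitutive HSPA8 differed by 0.28 ± 0.13 log2 units (adjusted p = 0.162). HSPB8, a small heat shock protein of muscle, rose by 2.99 ± 0.34 log2 units (adjusted p = 0.000518). It was low on the primordial arrays, at 166 and 90.0, against 572 and 419 on the last arrays. Of 16 genes that rose, 9 had both primordial signals above both last signals and 2, HSPB8 among them, had both below. Over all genes that rose these shares were 38.1% and 40.2%.

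Among cytokines and chemokines 10 of 17 rose and 0 fell, with a median of 1.65 log2 units. CXCL2, a neutrophil attractant, had signals of 383 and 188 in middle and 3599.5 and 4453 in last follicles and rose by 3.82 ± 0.29 log2 units (adjusted p = 4.86e-05). CCL2, a monocyte attractant, had 251 and 358 in middle and 2314 and 3373 in last follicles and rose by 3.15 ± 0.26 log2 units (adjusted p = 7.68e-05). CCL4 had 203 and 144 in middle and 2215 and 1324 in last follicles and rose by 3.21 ± 0.26 log2 units (adjusted p = 7.77e-05). Its last replicate 1 was the higher of the last pair, whereas 13 of the 17 genes were higher on last replicate 2. The list's median was -0.30 log2 units for replicate 1 minus replicate 2. Over all genes tested 2618 of 5432 were higher on last replicate 2, with a median of 0.01. CXCL8 rose by 3.30 ± 0.24 log2 units (adjusted p = 3.93e-05) from signals of 9.2 and 17.4 in middle to 242 and 300.2 in last follicles. For 9 of the 10 genes that rose both primordial arrays were above both last arrays, against 38.1% of all genes that rose. CXCL8 reached 10765 and 9781 on the primordial arrays.

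Outside the oocyte list, several epithelial genes fell, among them EPCAM, CDH1 and the keratin KRT8. In the epithelium list 7 of 8 tested genes fell and 0 rose, with a median of -2.08 log2 units. EPCAM, an adhesion molecule of epithelia, had signals of 291 and 223 in middle and 22.3 and 31.1 in last follicles, and fell by 2.67 ± 0.34 log2 units (adjusted p = 0.000947). CDH1, the cadherin of epithelial junctions, had 399.7 and 371 in middle and 63.8 and 98.6 in last follicles and fell by 2.07 ± 0.29 log2 units (adjusted p = 0.00162). ESRP1, which directs epithelial splicing, had 1379 and 1119 in middle and 43.8 and 100.5 in last follicles and fell by 3.91 ± 0.36 log2 units (adjusted p = 0.000151), or 15.1-fold. KRT8, a keratin of simple epithelia and of granulosa cells, had 651 and 780.1 in middle and 107 and 103 in last follicles and fell by 2.59 ± 0.27 log2 units (adjusted p = 0.000283). Middle and last signals were far apart in all 4. OVGP1, a glycoprotein of the oviduct lining, fell by 2.10 ± 0.28 log2 units (adjusted p = 0.00119). UPK1B fell by 1.22 ± 0.34 log2 units (adjusted p = 0.0379), a call lost in 9 of 15 alternatives, with adjusted p up to 0.179 and -0.79 log2 units without last replicate 2, and WT1, given above, made up the count. CLDN4 differed by -0.99 ± 0.44 log2 units (adjusted p = 0.161). The summed signal of the list was 3819.6 and 3798 in middle, 592 and 707 in last and 1038 and 871 in primordial follicles. The brightness filter took the mean of all 6 arrays, so members could pass through the middle arrays alone. The share that fell thus cannot be read apart from the filter. With no filter the 6 untested members differed by -1.42 (CLDN7), -1.36 (DSP, called lower), -0.65 (CLDN3), -0.42 (MUC1), -0.14 (KRT18) and 0.48 (KRT19) log2 units. Several genes of the list are also expressed by granulosa cells or oocytes, and their cell of origin was not tested.

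**Figure D4:**
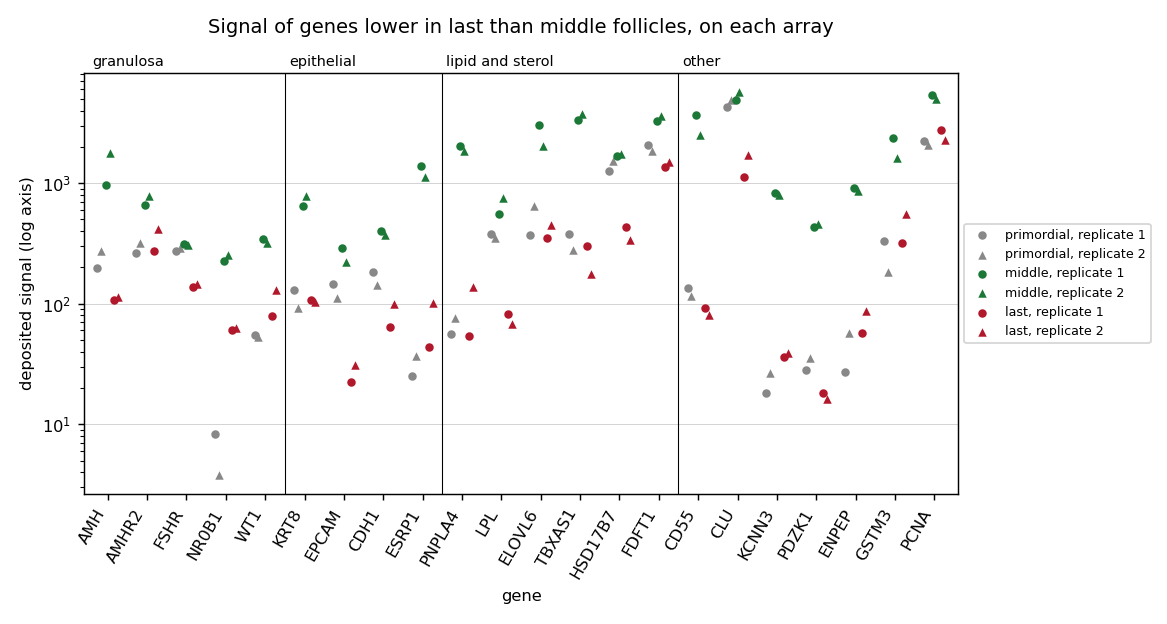
Points give the deposited signal (log axis) on each array for granulosa, epithelial, lipid and other genes that fell, in the colours and shapes named in the key. Both last points lie below both middle points for every gene shown, while the primordial points lie near the last ones for CD55 and PNPLA4 and near the middle ones for HSD17B7 and CLU.

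The oocyte list gives the scale of loss against which these stand. Of 15 tested oocyte and early embryo genes 12 fell, and 1 rose. Members of this list too could pass the brightness filter through the middle arrays alone. Among those that fell ZP2 differed by -5.13 ± 0.27 log2 units (adjusted p = 9.46e-06), the most, and NANOS1, an RNA-binding protein, by -1.46 ± 0.38 log2 units (adjusted p = 0.0282), the least. The NANOS1 call was lost without middle replicate 1 and without last replicate 2, at adjusted p = 0.237 and 0.0982. The gene that rose was KIT, the receptor for KIT ligand, which theca and stromal cells carry as well as oocytes. It had 170.0 and 255 in middle and 890.5 and 1006 in last follicles and rose by 2.10 ± 0.34 log2 units (adjusted p = 0.00346), at adjusted p = 0.0596 without middle replicate 1. DNMT1, the maintenance DNA methyltransferase, is abundant in oocytes but made in all dividing cells, and fell by 2.34 ± 0.20 log2 units (adjusted p = 0.000109) with last signals still at 2043 and 1409. ZP2, made by oocytes only, was nearly gone, at 40.6 and 42.1 from 1800.1 and 2200.3 on the middle arrays.

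Outside all lists, the 3 largest losses were of C7H6orf52, GPR160 and FKBP6. C7H6orf52, a gene of unknown function, had signals of 792 and 683 in middle and 3.0 and 9.3 in last follicles, and fell by 5.10 ± 0.46 log2 units (adjusted p = 0.000131). GPR160, an orphan receptor, had 756 and 487 in middle and 7.2 and 18.5 in last follicles and fell by 4.46 ± 0.48 log2 units (adjusted p = 0.000393). FKBP6, which acts in the meiotic germline, had 704 and 424 in middle and 20.8 and 10.1 in last follicles and fell by 4.18 ± 0.46 log2 units (adjusted p = 0.000427). LDHC, the lactate dehydrogenase of germ cells, had 390.0 and 275 in middle and 35.4 and 30.0 in last follicles and fell by 2.82 ± 0.38 log2 units (adjusted p = 0.00139). All 4 were far brighter on both middle arrays than on the last ones. Which cells they came from was not tested.

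Other losses were of genes with mixed roles. TBXAS1, thromboxane synthase, had 3371 and 3776 in middle and 303 and 178 in last follicles and fell by 3.85 ± 0.28 log2 units (adjusted p = 3.92e-05), or 14.4-fold. CD55, which shields cells from complement, had 3664 and 2493 in middle and 93 and 81.3 in last follicles and fell by 4.88 ± 0.25 log2 units (adjusted p = 9.46e-06), and all 4 of its tested probe sets were called lower. CLU, clusterin, fell by 1.91 ± 0.22 log2 units (adjusted p = 0.000557) from 4869 and 5700.5 in middle to 1120.3 and 1721 in last follicles, the other call among 16 complement genes, of which 0 rose. ELOVL6, which lengthens fatty acids, had 3038 and 2038 in middle and 349 and 451 in last follicles and fell by 2.60 ± 0.30 log2 units (adjusted p = 0.000623). ENPEP, an aminopeptidase that degrades angiotensin, had 919.5 and 866 in middle and 57.5 and 86.8 in last follicles and fell by 3.39 ± 0.34 log2 units (adjusted p = 0.000253). ITGB3, an integrin chain, had 627 and 899 in middle and 130.3 and 126 in last follicles and fell by 2.41 ± 0.28 log2 units (adjusted p = 0.000546). Genes of transport and membranes that fell included KCNN3, a potassium channel, at -3.95 ± 0.32 log2 units (adjusted p = 7e-05), PDZK1, a scaffold for transporters, at -3.79 ± 0.36 log2 units (adjusted p = 0.000172), SLC46A2, a solute carrier, at -3.05 ± 0.25 log2 units (adjusted p = 7.95e-05), SLC31A2, a copper carrier, at -2.74 ± 0.26 log2 units (adjusted p = 0.000178), and MYO5B, a motor for epithelial membrane traffic, at -2.33 ± 0.26 log2 units (adjusted p = 0.000442). HAS3, a hyaluronan synthase, fell by 2.56 ± 0.36 log2 units (adjusted p = 0.00163), and CALCR, the calcitonin receptor, by 2.69 ± 0.46 log2 units (adjusted p = 0.00435), with adjusted p = 0.0727 without middle replicate 1. TMOD1, which caps actin filaments, fell by 2.38 ± 0.33 log2 units (adjusted p = 0.00162), against the direction of the muscle genes.

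Large rises outside the lists were of genes of mixed kinds. FZD5, a Wnt receptor, had signals of 1428 and 1105 in middle and 10597 and 8008 in last follicles and rose by 2.86 ± 0.20 log2 units (adjusted p = 3.55e-05). ST3GAL4, a sialyltransferase, had 717 and 885 in middle and 5993 and 4729 in last follicles and rose by 2.72 ± 0.22 log2 units (adjusted p = 7.77e-05). ASRGL1, an asparaginase, had 325 and 506 in middle and 3837 and 3033 in last follicles and rose by 3.02 ± 0.28 log2 units (adjusted p = 0.00014). SLC41A1, a magnesium carrier, rose by 2.83 ± 0.26 log2 units (adjusted p = 0.000143) on its brightest probe set, and all 4 of its probe sets were called higher. The last arrays were above the primordial as well as the middle arrays for FZD5, at 6172 and 6747, ST3GAL4, at 1788 and 2452, and ASRGL1, at 961 and 1431. GEM, a small GTPase of the cytoskeleton, rose by 2.90 ± 0.27 log2 units (adjusted p = 0.000143) and IRF1, an interferon-response factor, by 2.66 ± 0.30 log2 units (adjusted p = 0.000489). TP53INP2, an autophagy regulator, rose by 3.62 ± 0.55 log2 units (adjusted p = 0.00243) from 25 and 144 in middle to 713 and 1340.0 in last follicles. A2M, the protease inhibitor alpha-2-macroglobulin, had 1669 and 1506 in middle and 4169.9 and 10032 in last follicles and rose by 2.02 ± 0.39 log2 units (adjusted p = 0.0081), and without middle replicate 1 or middle replicate 2 its adjusted p was 0.0812 or 0.0687.

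Of 30 antioxidant and glutathione genes 3 rose and 4 fell, shares near the background of 8.80% and 7.23%, and 23 gave no call. MGST1, a microsomal glutathione transferase, had signals of 2016 and 1425 in middle and 12513 and 15971 in last follicles and rose by 3.05 ± 0.22 log2 units (adjusted p = 4.28e-05), or 8.27-fold, and GSTA1, an alpha class transferase abundant in steroid-making cells, rose by 2.15 ± 0.33 log2 units (adjusted p = 0.00252) from 3958 and 6797 in middle to 24415 and 21823 in last follicles. GCLC, the rate-limiting enzyme of glutathione synthesis, rose by 0.97 ± 0.14 log2 units (adjusted p = 0.00224). MGST3 had 5020.0 and 5809 in middle and 2519 and 2571 in last follicles and fell by 1.08 ± 0.19 log2 units (adjusted p = 0.0046), and GSTM3 fell by 2.18 ± 0.35 log2 units (adjusted p = 0.00328), at adjusted p = 0.0612 without middle replicate 1. GSTA1 had 3 tested probe sets of which 1 was called, and its family holds close copies that the array may not separate. PRDX2 and TXNRD1, enzymes of the thioredoxin system, differed by 0.62 ± 0.21 log2 units (adjusted p = 0.0758) and 0.55 ± 0.20 log2 units (adjusted p = 0.0872), without a call. PRDX2 passed without middle replicate 2, at 0.95 log2 units (adjusted p = 0.0254), and both passed under median centring. SLC2A3, a glucose transporter, had 762 and 799 in middle and 3488 and 3696 in last follicles and rose by 2.18 ± 0.16 log2 units (adjusted p = 4.7e-05), the one call among 18 glycolysis genes.

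Genes of cell division set the last replicates apart from each other. All 22 mitosis genes and all 22 DNA replication genes tested were higher on last replicate 1 than on last replicate 2. Their medians for replicate 1 minus replicate 2 were 1.10 and 0.71 log2 units. Over all genes tested 2812 of 5432 were higher on last replicate 1, with a median of 0.01. Against the middle arrays 3 of the mitosis genes rose and 1 fell, and 3 of the replication genes rose and 1 fell. Of the 4 mitosis calls 0 held under all alternatives, and of the 4 replication calls 1 did. More mitosis genes were called when last replicate 2 was left out, so their count depended on which last array was kept. UBE2C, which drives the exit from mitosis, had signals of 1276 and 1624 in middle and 5316 and 2432 in last follicles and a difference of 1.31 ± 0.32 log2 units (adjusted p = 0.0224), a call lost without last replicate 1 (0.75 log2 units, adjusted p = 0.0702) and without either middle array, with adjusted p up to 0.187. PCNA, the sliding clamp of DNA polymerase, had 5388 and 5004 in middle and 2744 and 2287 in last follicles and fell by 1.05 ± 0.17 log2 units (adjusted p = 0.0035). CCND2, the cyclin of proliferating granulosa cells, had 575 and 703 in middle and 3867 and 2274 in last follicles and rose by 2.19 ± 0.41 log2 units (adjusted p = 0.007), at adjusted p = 0.0953 without middle replicate 1. AURKA, a mitotic kinase, fell by 1.67 ± 0.34 log2 units (adjusted p = 0.0102), with adjusted p = 0.0744 without middle replicate 1 and 0.0827 without middle replicate 2. As the mean of its probe sets AURKA differed by -0.61 log2 units (adjusted p = 0.116), and without last replicate 2 by -1.09. The last array with more leukocyte signal was thus the one with less of the division genes, while the median difference between the last replicates was 0.01 for theca genes, 0.09 for steroid enzymes, -0.04 for smooth muscle, -0.34 for vessel growth genes and -0.40 for endothelium. Complement genes differed more, by a median of -0.89. Against 193 of all 5432 genes, 7 of the 16 complement genes were over 2-fold higher on last replicate 2. More of them were called when last replicate 1 was left out.

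**Figure D5:**
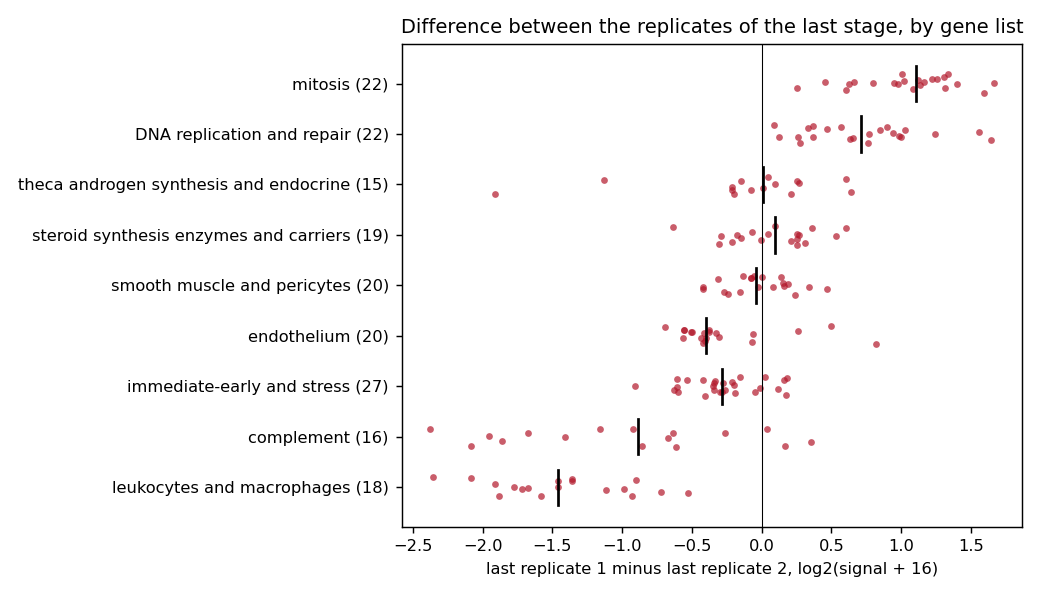
Each point is a tested gene, placed by the log2(signal + 16) difference between the replicates of the last stage, and the black bar is the median of its list, with the number of genes in brackets; height within a list has no meaning. All mitosis and DNA replication genes lie right of 0, with medians of 1.10 and 0.71, and all leukocyte genes left of it, with a median of -1.46, while theca genes centre at 0.01.

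Housekeeping lists gave few calls. None of 40 oxidative phosphorylation genes, with a median of 0.15, and none of 57 ribosomal protein genes, with a median of -0.12, was called by limma, and 1 of 28 splicing genes was called lower. Unadjusted limma p was under 0.05 for 6 of the oxidative phosphorylation genes (15%) and 3 of the ribosomal genes (5.26%). Over all genes tested that share was higher, at 29.2%. Of the oxidative phosphorylation genes 16 were higher and 1 lower in last follicles without overlap. Of the ribosomal genes 3 were higher and 32 lower without overlap. Over all genes tested 57.6% did not overlap. Under median centring 5 oxidative phosphorylation genes and 1 ribosomal gene were called. Under quantile normalization 3 oxidative phosphorylation genes were. The ribosomal median turned to 0.07 under median centring, so its sign is not settled. Of the 12 tested ciliary genes IFT57 was the one called, at -1.02 ± 0.25 log2 units (adjusted p = 0.0221), lost without either middle array and without last replicate 1, with adjusted p up to 0.174. Wnt, Notch, hedgehog and Hippo genes gave 2 rises in 14, SFRP1, an inhibitor of Wnt, at 1.21 ± 0.27 log2 units (adjusted p = 0.0155), and DLL4, a Notch ligand of endothelial tip cells, at 0.85 ± 0.25 log2 units (adjusted p = 0.0432). SFRP1 was lost without middle replicate 2 and without last replicate 2, and DLL4 in 8 of 15 alternatives, including the removal of any array, with adjusted p up to 0.0972 and 0.181. IGF1 differed by -0.20 ± 0.20 log2 units (adjusted p = 0.524) and IGF1R, its receptor, by 0.73 ± 0.30 log2 units (adjusted p = 0.128), without a call.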

How the data were processed

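RNA of 6 porcine follicle samples was hybridised to single-channel Affymetrix arrays. Per the submitters' processing notes, GCOS made the deposited values, which are linear intensities per probe set; its version, and any step between arrays, is not given in the sources used here. On every array the mean intensity without the lowest and highest 2% of values was 500.1, so the deposited arrays share 1 scale.

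From these, log2(signal + 16) was taken. The dimmest 40% of probe sets by mean signal were left out, and limma 3.58.1 in R 4.3.3 (lmFit, then eBayes with an intensity trend) was fitted to the other 14399 on all 6 arrays, with no replicate block. Tests were two-sided, adjusted by Benjamini-Hochberg over all of them, and checked on simulated data. A gene took its probe set with the highest mean signal. Same-numbered replicates did not deviate together (r = -0.048 between middle and last), and numbers were not treated as pairs. With 2 arrays in each stage this cannot show whether same-numbered arrays share an animal or batch, which the titles do not say. Python 3.11.15 with pandas 2.3.3 and matplotlib 3.10.9 read tables and drew figures.

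Named genes were the 40 largest differences in each direction among called genes without overlap, outside the oocyte list, the 6 members of each of 34 lists with the smallest p, all members called in the theca, muscle, endothelium, vessel and steroid lists, and some known markers in any case. From these the text gives examples, and list members without a call were named as contrast after their values were seen. The genes, lists and tests were chosen with earlier results of these data known. The search for promoter motifs was not run, since no promoter sequences were used here.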

Additional observations from a re-analysis of the deposited data

How the results depend on the processing

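Of 871 genes called, 247 kept call and direction under all alternatives that tested them, as did 106 of the 155 called genes named above. With 1 array left out, 727 to 2172 probe sets were called in place of 2481, lowest without middle replicate 1 (727) and without middle replicate 2 (1440), as were 6 to 9 smooth muscle genes in place of 10 and 7 to 10 steroid genes in place of 11. Leaving out the dimmest 60% of probe sets gave 4 endothelial calls in place of 9, with fewer genes tested. No other alternative moved these counts or the theca count beyond 1.5 times. Median centring raised the share of calls that were higher from 42.3% to 62.9%. The replicate block, which takes same-numbered arrays as pairs, gave 2279 probe sets.

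No called gene named above changed sign. Of those without a call, with 1 array left out COL1A2 ran from -0.11 to 0.23, COL3A1 from -0.12 to 2.14 (called without last replicate 1), GATA4 from -0.60 to 0.04, GJA1 from -0.01 to 0.15 and TEK from -0.19 to 0.38. Averaging all probe sets of a gene gave -0.96 for COL1A2, -0.93 for HSPA8 and 0.85 for VEGFA, and median centring gave 0.05 for MYC and 0.13 for VEGFA; the cause was not tested. That averaging made HSPA8 and VEGFA pass the threshold, at adjusted p = 0.0118 and 0.0275.

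With 2 arrays in each stage small differences go uncalled, and dim genes have folds that the pseudocount of 16 shrinks: AREG rose by 4.18 with a pseudocount of 1 and 1.05 with 64, PTGS2 by 3.99 and 1.5. Quantile normalization lowered HIF1A to 0.30, where its call was lost, and SERPINE2 to 0.54, still called.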
